A study of Homo sapiens with 10 samples.

Results

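S100 proteins are small calcium-binding proteins of the EF-hand family that mostly act as dimers. Calcium opens a hydrophobic surface on each subunit, through which the dimer binds annexins, myosin and other targets, and several members also act outside the cell on receptors such as AGER (RAGE). Most of their genes lie in a cluster on the long arm of chromosome 1, and many are studied as markers of carcinoma cells. The 10 genes described here were taken by name: S100A2, S100A4, S100A6, S100A9, S100A10, S100A11, S100A13, S100A14, S100A16 and S100P. They are 10 of the 57110 gene identifiers in the deposited annotation and hold 31 of its 99493 transcripts, whose values were summed per gene.

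Total RNA of 7 human ovarian cancer cell lines was read on nanopore instruments in 10 libraries, deposited to benchmark a transcript quantification package. COV362, COV504, OVKATE, OVMANA, OVTOKO and SK-OV-3 had 1 PromethION library each, and IGROV-1 had 2 PromethION and 2 MinION libraries. The labels name no treatment, genetic change or separate culture for any of them. P-values therefore measure the spread between the IGROV-1 libraries, which may be technical, and each lone library was assumed to vary like them. Same-numbered PromethION and MinION libraries of IGROV-1 deviated in part alike from their group means (Pearson r = 0.367 over 10041 genes). The 2 pairs may therefore not give independent spreads, and p-values between lines may be too small. Library totals ran from 1729782 to 3666224 counts, and levels are given as CPM, the usual scaling of counts to the total of a library. A count of 0 allows up to 3 counts, equal to 0.64 CPM over the IGROV-1 PromethION pair, 0.435 CPM over the MinION pair and between 1.18 CPM (COV362) and 1.73 CPM (OVTOKO) in the 6 other lines. These limits and the intervals given for counts describe counting error alone. In bulk RNA, fewer cells with a transcript and less of it per cell cannot be told apart.

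All members but S100P lie on chromosome 1 (GRCh38). S100A10 (chr1:151982915-151994390) and S100A11 (chr1:152032506-152037035) lie on the minus strand ahead of the others. S100A9 (chr1:153357854-153361027) is on the plus strand. S100A6 (chr1:153534599-153536244), S100A4 (chr1:153543613-153550136), S100A2 (chr1:153561108-153567890), S100A16 (chr1:153606886-153613083), S100A14 (chr1:153614255-153616986) and S100A13 (chr1:153618799-153634340) follow on the minus strand. S100P lies on the plus strand of chromosome 4 (chr4:6693069-6697169). All 31 transcripts had the same coordinates in GENCODE 29. S100A13 is joined with AL162258.1 under a single identifier. Counting only the transcripts that GENCODE 29 gives to a member moved its level by less than 1% and kept all 42 calls between lines.

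Promoter windows from 250 bases before to 50 after a start were taken from RefSeq (GRCh38.p14), and all 10 members matched, with 14 windows. The windows below belong to the member that varied least between lines (S100A11), to 3 of the members that differed widely between lines (S100A4, S100A16 and S100A14), and to the S100A13 start whose transcript separated IGROV-1 from the other lines. All 5 are read 5′ to 3′ on the minus strand, and capitals mark TATAA on either strand.
S100A11 (chr1:152036955-152037254): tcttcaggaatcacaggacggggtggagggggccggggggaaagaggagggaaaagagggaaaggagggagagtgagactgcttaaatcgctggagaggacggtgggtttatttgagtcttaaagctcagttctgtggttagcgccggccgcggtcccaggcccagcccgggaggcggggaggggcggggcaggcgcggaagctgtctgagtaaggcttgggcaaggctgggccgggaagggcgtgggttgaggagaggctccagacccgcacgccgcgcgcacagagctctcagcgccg
S100A4 (chr1:153545757-153546056): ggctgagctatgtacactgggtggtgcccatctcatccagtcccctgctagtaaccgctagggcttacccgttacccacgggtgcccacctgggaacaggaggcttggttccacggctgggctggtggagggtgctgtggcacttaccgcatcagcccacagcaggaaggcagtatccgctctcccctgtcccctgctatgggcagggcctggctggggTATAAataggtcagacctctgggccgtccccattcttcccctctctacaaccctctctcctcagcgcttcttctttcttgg
S100A16 (chr1:153613088-153613387): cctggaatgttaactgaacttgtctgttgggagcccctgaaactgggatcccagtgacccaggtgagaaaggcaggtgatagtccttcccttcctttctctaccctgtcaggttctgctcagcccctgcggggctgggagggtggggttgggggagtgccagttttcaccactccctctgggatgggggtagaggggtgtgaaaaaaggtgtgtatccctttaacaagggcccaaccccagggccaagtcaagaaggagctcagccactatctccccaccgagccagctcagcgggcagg
S100A14 (chr1:153616276-153616575): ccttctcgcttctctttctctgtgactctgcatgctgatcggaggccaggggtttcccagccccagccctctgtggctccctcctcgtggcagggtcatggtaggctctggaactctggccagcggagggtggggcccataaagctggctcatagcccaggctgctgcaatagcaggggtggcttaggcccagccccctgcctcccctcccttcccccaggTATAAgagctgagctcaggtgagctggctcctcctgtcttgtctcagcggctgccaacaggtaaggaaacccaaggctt
S100A13 (chr1:153627190-153627489): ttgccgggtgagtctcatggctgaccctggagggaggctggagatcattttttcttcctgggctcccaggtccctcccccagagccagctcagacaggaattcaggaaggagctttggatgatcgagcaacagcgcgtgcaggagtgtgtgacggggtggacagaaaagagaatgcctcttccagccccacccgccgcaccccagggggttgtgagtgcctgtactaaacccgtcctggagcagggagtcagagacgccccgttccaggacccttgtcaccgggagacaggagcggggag

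Taking the window nearest to the leading transcript of each member, 6 of 10 held TATAA on either strand, those of S100A4, S100A6, S100A9, S100A13, S100A14 and S100P. The S100A13 window counted here (chr1:153627456-153627755) is not the one printed above, which held no TATAA. Of 35114 RefSeq windows of the same length, 20.4% held it. GGGCGG on either strand was in 4 of the 10 (S100A6, S100A9, S100A10 and S100A11) and in 44.95% of all windows. These windows held a median of 6.5 CG dinucleotides, from 3 in S100A16 to 32 in S100A10, against a median of 14 over all windows. A match is a description of these letters and not of a factor's binding. The RefSeq start of the window was 0 to 231 bases from the start of the leading deposited transcript for S100A2, S100A4, S100A6, S100A9, S100A11 and S100A16, and 531 to 809 bases from it for S100A10, S100A13, S100A14 and S100P.

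The members together held 0.359% and 0.371% of the counts of the IGROV-1 PromethION libraries and 0.415% and 0.429% of the MinION libraries. The share was higher in every other line, at 0.917% in OVMANA, 0.982% in OVTOKO, 1.53% in COV504, 2.11% in OVKATE, 2.12% in SK-OV-3 and 2.71% in COV362. S100A6 alone made up 61.2% to 62.8% of the members' counts in COV362, COV504, OVTOKO and SK-OV-3, and 21.5% to 28.3% in the IGROV-1 libraries. Levels of different genes were compared as CPM per kilobase of transcript, since the transcripts differ in length. On that scale S100A6 ranked first of the 10 members in the 6 other lines, from 4648 in OVMANA to 25052 in COV362. In IGROV-1 it ranked at place 2 or 3, while S100A4 led in PromethION replicate 1 and S100A11 in the 3 other libraries. S100A11 was among the first 3 in all 10 libraries, and S100A9, S100A14 and S100P never ranked above place 8.

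**Figure D1:**
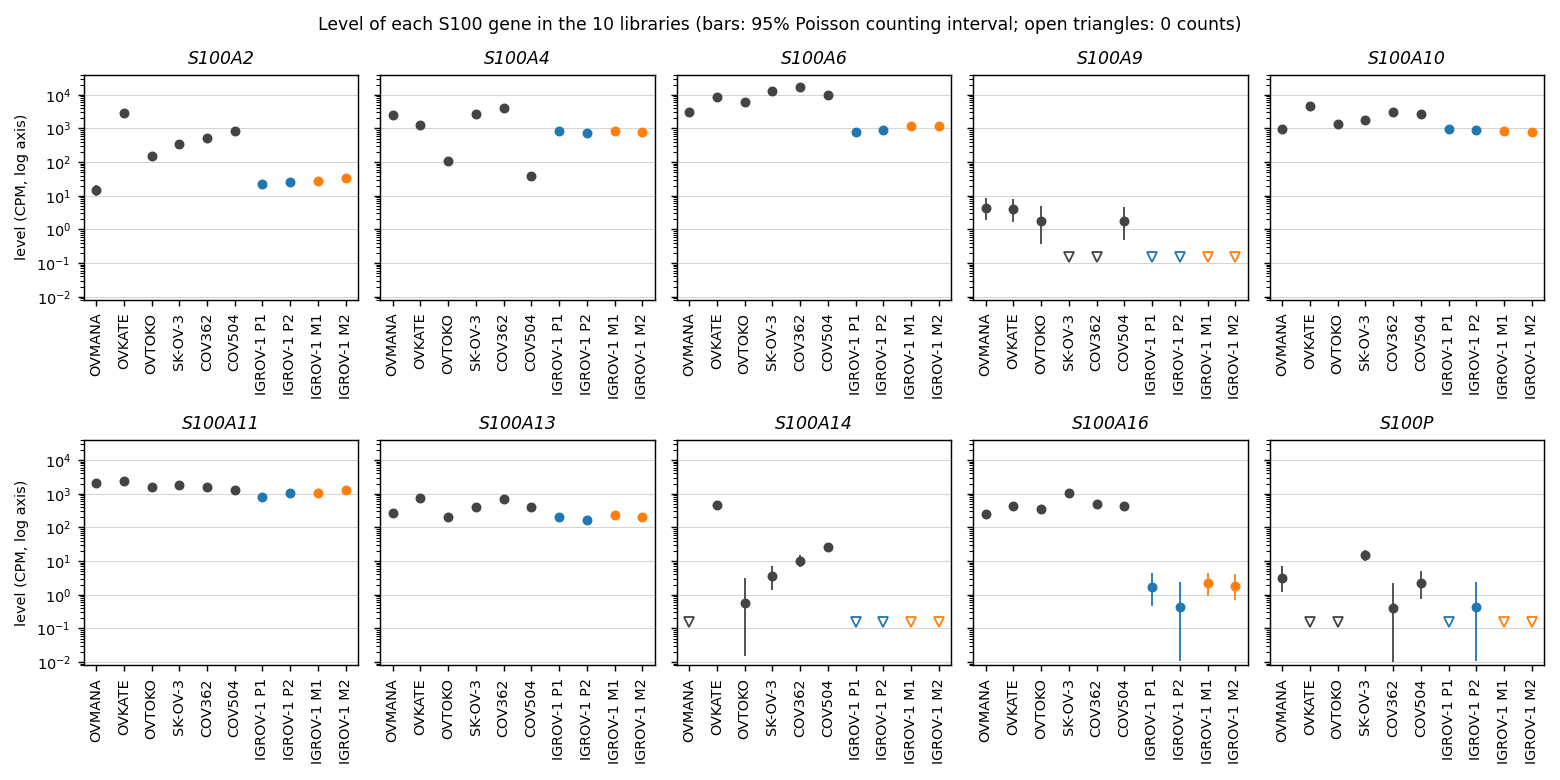
Level of each of the 10 S100 genes in the 10 libraries, in CPM on a log axis; points are single libraries, bars are exact 95% Poisson counting intervals, open triangles at the foot mark libraries with 0 counts, blue is IGROV-1 PromethION (P1, P2) and orange IGROV-1 MinION (M1, M2). S100A6 and S100A16 are lower in all 4 IGROV-1 libraries than in every other line, and S100A14 stands at 455 CPM in OVKATE against 25.4 CPM or less elsewhere.

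The first comparison was between each of the 6 other lines and IGROV-1 on the PromethION. Of the 10 members 9 entered the test, and S100A9 did not pass the filter on low counts. Most members were higher than in IGROV-1: 9 of 9 in SK-OV-3, 8 in COV362, 7 in OVKATE, 6 in COV504, and 5 each in OVMANA and OVTOKO (edgeR's quasi-likelihood test, Benjamini-Hochberg adjusted p under 0.05 over 13030 genes). Over all genes tested, the share called higher was 22% in SK-OV-3, 23.7% in COV362, 26.8% in OVKATE, 24% in COV504, 18.9% in OVMANA and 18.2% in OVTOKO. S100A4 was lower in COV504 and OVTOKO, where 19.6% and 15.9% of all genes were called lower, and no member was lower in SK-OV-3, COV362, OVKATE or OVMANA, where that share was 19.8%, 18.8%, 22.4% and 16.5%. The 54 tests gave 40 higher, 2 lower and 12 not called. They include S100A14, S100A16 and S100P, which had few or no counts in IGROV-1 PromethION replicates 1 and 2. S100A14 had 0 in both, S100A16 had 4 and 1, and S100P had 0 and 1. From such counts the test could hardly call a member lower, so the lack of a lower call says nothing about these members. They entered the test through their counts in other lines, and all of them are among the 9 of SK-OV-3. Their higher calls, 4 for S100A14, 6 for S100A16 and 1 for S100P, had no like chance of being lower. The other members were called higher in 6 lines (S100A6), 5 lines each (S100A2, S100A10, S100A11 and S100A13) and 3 lines (S100A4). The 6 comparisons share the IGROV-1 libraries and are not independent of one another. Scaling by library size alone moved the median of all genes from 0.01 to 0.31 on the log2 scale in OVKATE and from 0.00 to 0.20 in SK-OV-3, and the higher share of all calls from 54.5% to 68.2% and from 52.7% to 64.5%, while all 42 member calls kept their direction. Lines are ordered below by CPM. With the scaling used in the test, some neighbours stood in the opposite order for S100A4, S100A11, S100A13 and S100A16. None of these steps was called, such as OVKATE over COV362 for S100A13 (log2 difference -0.22).

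**Figure D2:**
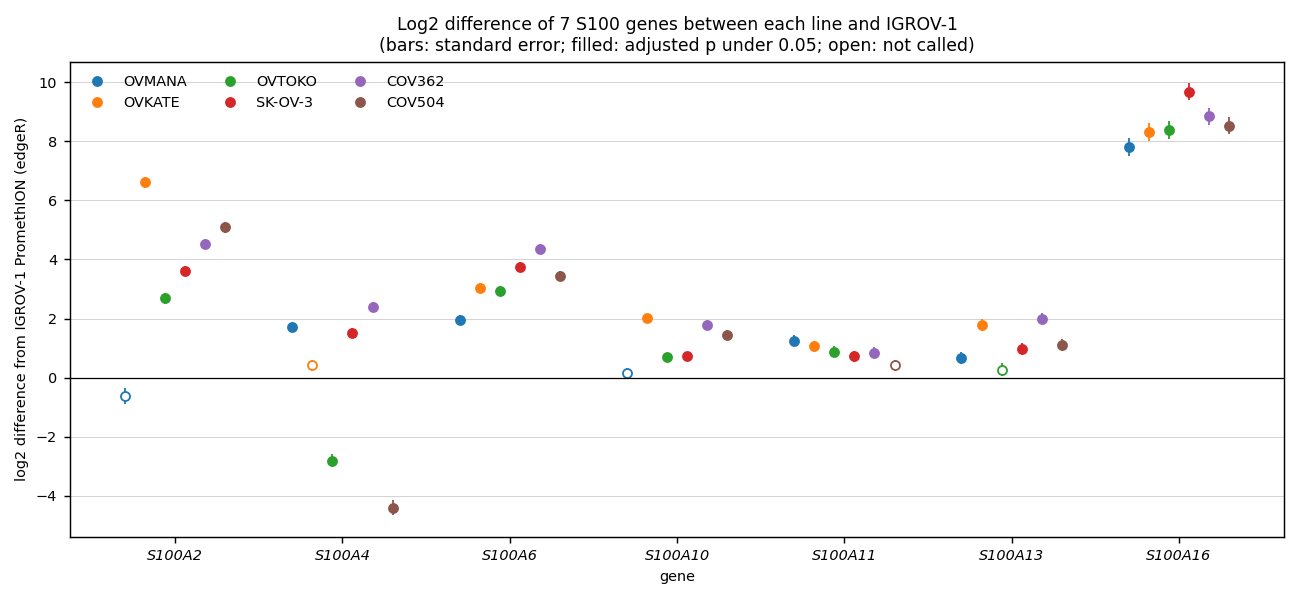
Log2 difference of 7 S100 genes between each of the 6 other lines and IGROV-1 PromethION (edgeR, vertical axis), with bars for the standard error, filled points for an adjusted p under 0.05 and open points for differences not called. S100A16 lies between 7.82 and 9.67 in all 6 lines, S100A4 lies on both sides of 0, and S100A9, S100A14 and S100P are left out because their IGROV-1 libraries hold 0 or 1 count.

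S100A6 (calcyclin), which binds the calcyclin-binding protein CACYBP and annexins, was the most abundant member outside IGROV-1. Its level was 16682 CPM in COV362, 13161 in SK-OV-3, 9624 in COV504, 8411 in OVKATE, 6011 in OVTOKO and 3098 in OVMANA. In IGROV-1 it was 769.7 and 901 CPM on the PromethION (835 ± 92.6, SD, n = 2) and 1147 and 1215 CPM on the MinION. Every other line was above every IGROV-1 library. The ratio of CPM to the IGROV-1 PromethION mean ran from 3.71 in OVMANA to 19.97 in COV362. All 6 differences were called, with log2 differences from 1.95 ± 0.16 in OVMANA (SE, edgeR adjusted p = 5.99e-05) to 4.36 ± 0.17 in COV362 (adjusted p = 1.47e-06). In the order of levels COV362 differed from SK-OV-3, OVTOKO from OVMANA, and OVMANA from IGROV-1. The steps from SK-OV-3 through COV504 and OVKATE to OVTOKO were not called.

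S100A4 (metastasin), which binds the heavy chain of non-muscle myosin and is known for its link to cell motility, went in both directions. It stood at 4011 CPM in COV362, 2631 in SK-OV-3, 2468 in OVMANA and 1286 in OVKATE, and at 105.8 in OVTOKO and 39.2 in COV504. IGROV-1 held 846 and 719 CPM on the PromethION and 860.3 and 761 CPM on the MinION. OVTOKO and COV504 were below all IGROV-1 libraries, and the remaining lines were above them. COV362 had a log2 difference from IGROV-1 of 2.40 ± 0.18 (SE, edgeR adjusted p = 3.08e-05), and SK-OV-3 and OVMANA were called higher too. OVTOKO was lower at -2.81 ± 0.22 (adjusted p = 5.07e-05) and COV504 at -4.40 ± 0.25 (adjusted p = 6.16e-06), a CPM ratio of IGROV-1 to COV504 of 19.99. OVKATE was not called at 0.42 ± 0.18 (edgeR adjusted p = 0.0878), but was with RLE size factors or library size alone in place of TMM (adjusted p = 0.0485 and 0.00387, with a range of 0.00387 to 0.394 over all alternatives). OVTOKO and COV504 also differed from each other.

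S100A10, the partner of annexin A2 that has lost the ability to bind calcium, was measured at 4533 CPM in OVKATE, 3054 in COV362, 2630.3 in COV504, 1758 in SK-OV-3, 1390.3 in OVTOKO and 978 in OVMANA. IGROV-1 held 937 and 877 CPM on the PromethION and 817 and 790.0 CPM on the MinION. All other lines were above all 4 IGROV-1 libraries, OVMANA by the narrowest margin. In 5 lines the difference was called, from a log2 difference of 0.69 ± 0.16 in OVTOKO (SE, edgeR adjusted p = 0.0097) to 2.02 ± 0.15 in OVKATE (adjusted p = 2.50e-05). OVMANA was not called, at 0.17 ± 0.16 (edgeR adjusted p = 0.442). Without IGROV-1 PromethION replicate 2 the OVTOKO difference was 0.65 and not called (adjusted p = 0.0728, with a range of 0.00256 to 0.0728 over the alternatives).

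S100A11 (calgizzarin), a partner of annexin A1, had the smallest ratio of the highest to the lowest line, 2.57. Its levels were 2356 CPM in OVKATE, 2085 in OVMANA, 1786 in SK-OV-3, 1603 in OVTOKO, 1596 in COV362 and 1301 in COV504, and 807 and 1027 CPM (PromethION) and 1053 and 1288 CPM (MinION) in IGROV-1. The groups did not overlap, but COV504 lay just above the highest IGROV-1 library. COV504 was not called, at 0.43 ± 0.19 (SE, edgeR adjusted p = 0.101), and the 5 other lines were called higher, from 0.73 ± 0.19 in SK-OV-3 (adjusted p = 0.0138) to 1.25 ± 0.19 in OVMANA (adjusted p = 0.00124). None of the 6 steps between neighbours in the order was called. Without IGROV-1 MinION replicate 1 the calls in OVTOKO, SK-OV-3 and COV362 were lost (adjusted p = 0.0561, 0.0662 and 0.0501). Without PromethION replicate 1 the SK-OV-3 call was lost (adjusted p = 0.102), as it was with the MinION libraries as reference (0.107). The pseudogenes S100A11P1 and S100A11P2 were listed at 0 in all 10 libraries.

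S100A2, a mainly nuclear member known from keratinocytes and squamous epithelium, differed 194-fold between the highest and the lowest line. It stood at 2897 CPM in OVKATE, 862 in COV504, 537 in COV362, 342 in SK-OV-3 and 146.8 in OVTOKO, but at 14.96 CPM in OVMANA. The IGROV-1 libraries held 23.1 and 24.9 CPM (PromethION) and 26.7 and 33.7 CPM (MinION), so OVMANA was below all 4 and the other lines were above them. OVKATE exceeded the IGROV-1 PromethION mean 121-fold in CPM, with a log2 difference of 6.61 ± 0.18 (SE, edgeR adjusted p = 4.46e-07). The 5 lines above IGROV-1 were called, and OVMANA was not, at -0.62 ± 0.26 (adjusted p = 0.102). Against the MinION libraries, an alternative chosen after seeing the data, OVMANA was lower at -0.91 and called (edgeR adjusted p = 0.0214, with a range of 0.0214 to 0.507 over the alternatives).

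S100A16, a widely expressed member, was near the limit of detection in IGROV-1 and in no other line. It was measured at 1070.2 CPM in SK-OV-3, 500.3 in COV362, 440.2 in OVKATE, 437 in COV504, 357 in OVTOKO and 242 in OVMANA. In IGROV-1 it had 4 and 1 counts on the PromethION (1.71 and 0.43 CPM) and 8 and 6 counts on the MinION (2.18 and 1.85 CPM). All 4 IGROV-1 libraries lay far below every other line. The ratio of CPM to the PromethION mean, which rests on so few counts, ran from 226 in OVMANA to 1001 in SK-OV-3. All 6 differences were called, with log2 differences from 7.82 ± 0.31 (SE, edgeR adjusted p = 1.52e-06) to 9.67 ± 0.29 (adjusted p = 7.47e-07) in those lines. Among the 6 other lines, SK-OV-3 was separated from its neighbour COV362 in the order and no further step was called.

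S100A14, whose gene is next to S100A16 and which is known from epithelia, was at 1 count or less in IGROV-1, OVMANA and OVTOKO. It had 919 counts in OVKATE (454.5 CPM, exact 95% Poisson interval 426 to 485), 57 in COV504 (25.4 CPM), 26 in COV362 (10.2 CPM), 7 in SK-OV-3 (3.55 CPM), 1 in OVTOKO (0.58 CPM), and 0 in OVMANA and in all 4 IGROV-1 libraries. Set against the limit of 3 counts over the IGROV-1 PromethION pair, the measured level was 707-fold higher in OVKATE and 39.5-fold in COV504. It was 15.9-fold higher in COV362 and 5.52-fold in SK-OV-3. These ratios leave out the counting error of the line itself, which is wide at 7 counts, so they are not lower bounds. These 4 differences were called (edgeR adjusted p = 5.20e-06, 1.90e-04, 9.77e-04 and 0.0106, in that order). The call in SK-OV-3, on 7 counts, was lost without IGROV-1 MinION replicate 1 (adjusted p = 0.0554, with a range of 0.00109 to 0.0554 over the alternatives). OVKATE was separated from COV504, COV504 from COV362 and COV362 from SK-OV-3. OVMANA had none of its 1871485 counts on S100A14, which allows up to 1.60 CPM, beside 242 CPM of S100A16.

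S100A13, which helps to release growth factors such as FGF1 and interleukin 1 alpha, proteins without a signal peptide, was detected in every library. Its levels were 768 CPM in OVKATE, 704 in COV362, 417 in SK-OV-3, 412 in COV504, 275 in OVMANA and 208 in OVTOKO, and 200.3 and 163 CPM (PromethION) and 241 and 199 CPM (MinION) in IGROV-1. OVTOKO lay within the range of the IGROV-1 libraries and the other lines above it. COV362 had a log2 difference of 2.00 ± 0.19 (SE, edgeR adjusted p = 1.30e-04) and OVKATE of 1.78 ± 0.19 (adjusted p = 1.65e-04), and SK-OV-3 and COV504 were also called. OVTOKO was not called, at 0.27 ± 0.21 (adjusted p = 0.353). OVMANA was called at 0.66 ± 0.20 (adjusted p = 0.035), with a range of 0.00717 to 0.146 over the alternatives. That call was lost without PromethION replicate 2, MinION replicate 1 or MinION replicate 2 (edgeR adjusted p = 0.106, 0.0755 and 0.0536), with DESeq2 (0.12), without a filter, and with the MinION libraries or all 4 IGROV-1 libraries as the reference.

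S100P, which binds ezrin and AGER, and S100A9, which forms calprotectin with S100A8 in neutrophils and monocytes, were near the limit of detection. S100P had 30 counts in SK-OV-3 (15.2 CPM), 6 in OVMANA (3.21 CPM), 5 in COV504 (2.22 CPM), 1 in COV362 and 1 in IGROV-1 PromethION replicate 2, and 0 in the 5 other libraries. Only SK-OV-3 was called against IGROV-1, with a CPM ratio of 70.9 (95% counting interval 11.8 to 2894) and an edgeR adjusted p of 0.00203. In OVMANA the ratio was 14.97 (1.82 to 689), with an adjusted p of 0.0574 that ran from 0.00814 to 0.101 over the alternatives that gave one. In COV504 it was 10.4 (1.16 to 491), with an adjusted p of 0.103 that ran from 0.0181 to 0.208. S100P in both lines was called higher without IGROV-1 PromethION replicate 2, the library with its single count, at 0.0118 in OVMANA and 0.0355 in COV504, with all 4 IGROV-1 libraries as the reference, and with the MinION libraries as the reference. S100A9 had 8 counts in OVMANA (4.27 CPM) and in OVKATE (3.96 CPM), 4 in COV504 and 3 in OVTOKO, and none in COV362, SK-OV-3 and the IGROV-1 libraries. Its partner S100A8 had 1 count in OVKATE (0.49 CPM) and none elsewhere. Of the 5 leukocyte markers PTPRC, CD3E, CD14, LYZ and CSF3R, 2 were at or above 3 counts in OVMANA, OVKATE and COV504, 1 in COV362 and none in OVTOKO, SK-OV-3 and IGROV-1. Their summed level was 24.6 CPM in OVMANA, 16.3 in OVKATE, 5.78 in COV504, 3.53 in COV362 and 0 to 0.58 in the rest, with PTPRC at 0.44 CPM or less and CD3E at 0 in every library, and their part in the S100A9 counts was not tested.

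Between the 6 other lines themselves, 83 of 135 member tests were called over 15 pairs of lines, against 33.1% of all gene tests in those pairs. That share is given for the main fit alone and not for the alternatives. S100A2 and S100A4 differed in 14 of 15 pairs, S100A14 in 13, S100A6 and S100A10 in 11, S100A13 in 8, S100A16 in 7, S100P in 4 and S100A11 in 1, OVMANA against COV504. Without IGROV-1 MinION replicate 1 the calls numbered 55, and with DESeq2 63. Over the 7 lines on the PromethION, levels on the log2(CPM + 1) scale gave Pearson r of 0.96 for S100A2 with S100A10, 0.94 for S100A10 with S100A14, 0.92 for S100A6 with S100A16 and for S100A10 with S100A13, and 0.91 for S100A2 with S100A14. S100A4 gave -0.15 with S100A2 and 0.06 with S100A6. These are descriptions over 7 points, 1 per line, that share their libraries between genes.

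The second comparison was of transcripts within a gene. Estimated counts divide reads between overlapping transcripts, so a share of a transcript depends on that division. Of the 10 members, 7 had at least 2 transcripts that passed the filter, and edgeR's exon-level test applied to transcripts called a change in usage against IGROV-1 for 4 in OVKATE (4.97% of all 4730 genes tested), 3 in COV504 (2.56%), 3 in OVMANA (2.75%), 2 in COV362 (2.98%), 2 in OVTOKO (1.35%) and 1 in SK-OV-3 (2.07%). Without any 1 of the IGROV-1 libraries 1 was called in COV504, S100A13. S100A13 was called in all 6 lines, S100A4 in 5, S100A6 and S100A2 in 2 each, and S100A10, S100A14 and S100A16 in none. IGROV-1 PromethION held S100A14 at 0 counts and S100A16 at 4 and 1 counts. For these members the test could hardly call a change, so its result says nothing about their usage.

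The leading S100A13 transcript, ENST00000440685, starts at chr1:153628239 and ENST00000339556 at chr1:153628180, while ENST00000392623 starts 971 bases downstream of the first, at chr1:153627268, inside the S100A13 window printed above. The 2 upstream starts held 92.2% and 92.8% of the counts of the gene on the PromethION and 87.8% and 89.1% on the MinION in IGROV-1. They held 64.0% in OVKATE, 53.7% in SK-OV-3, 52.9% in COV362, 49.5% in OVMANA, 40.5% in COV504 and 39.2% in OVTOKO, so the groups did not overlap. ENST00000392623 had 7.63% and 7.07% (PromethION) and 11.8% and 10.4% (MinION) in IGROV-1 and from 33.8% in OVKATE to 60.0% in OVTOKO in the other lines. The usage test was called in all 6 lines (edgeR, Simes, adjusted p from 1.60e-05 in COV504 to 3.89e-04 in OVKATE) and under all 8 alternatives in each.

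Given as levels, transcripts with the other starts stood at 15.6 and 11.6 CPM (PromethION) and 29.4 and 21.6 CPM (MinION) in IGROV-1, and at 332 in COV362, 276 in OVKATE, 245 in COV504, 193 in SK-OV-3, 139 in OVMANA and 127 in OVTOKO. They were 9.31-fold (OVTOKO) to 24.4-fold (COV362) above the IGROV-1 PromethION mean of 13.6 CPM. The upstream starts stood at 185 and 151 CPM (PromethION) and 211 and 177 CPM (MinION), against 491 in OVKATE, 372 in COV362, 224 in SK-OV-3, 167 in COV504, 136 in OVMANA and 81.5 in OVTOKO. OVMANA, OVTOKO and COV504 were within or below the IGROV-1 range for these starts, with ratios to the PromethION mean of 0.811, 0.486 and 0.994. In OVTOKO the gene as a whole was not called while its usage was. S100A1, on the opposite strand, overlaps S100A13 by 4112 bases that include both upstream starts, and was at 419 CPM in OVMANA, 2086 in OVKATE, 372 in COV362 and 4.27 to 19.1 CPM in the other libraries. Whether counting used the strand is not given in the sources used here, and the part of S100A1 reads in S100A13 was not tested.

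**Figure D3:**
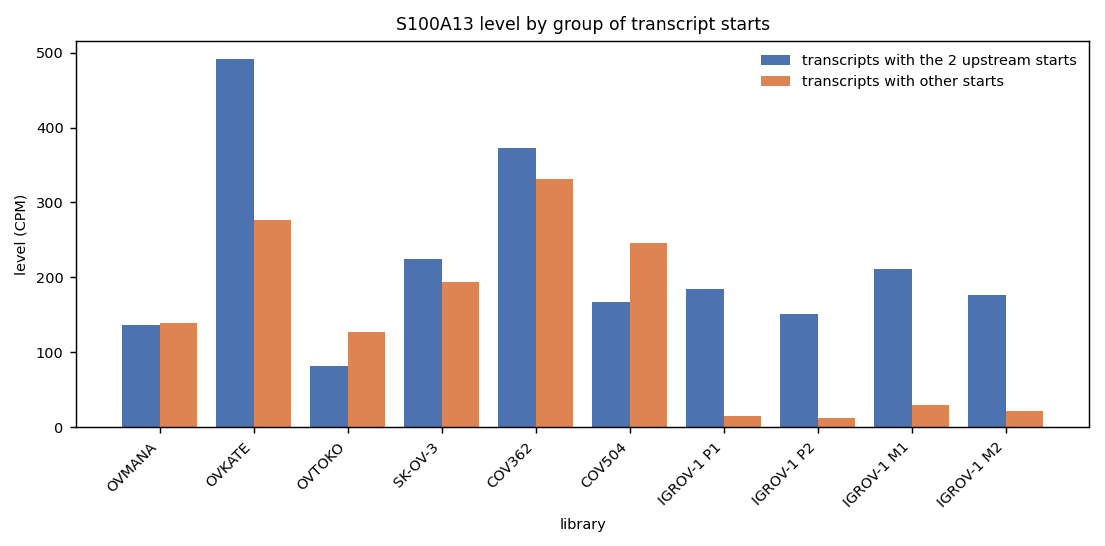
S100A13 level in CPM in each library, split into transcripts with the 2 upstream starts (blue) and transcripts with other starts (orange); bars are single libraries. The orange bars are 29.4 CPM or less in all 4 IGROV-1 libraries (P1, P2, M1, M2) and 127 CPM or more in the other lines, while the blue bars of OVMANA, OVTOKO and COV504 are near or below those of IGROV-1.

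S100A4 was spread over ENST00000368716 (start chr1:153545885), ENST00000354332 (start chr1:153545802, with 4 exons in place of 3) and ENST00000368715 (start chr1:153545063). In IGROV-1 ENST00000354332 held 24.9% and 29.9% on the PromethION and 21.5% and 25.9% on the MinION. It held 27.9% in SK-OV-3 and 30.0% in OVTOKO, but 5.31% in OVMANA, 3.51% in OVKATE, 7.61% in COV362 and 6.73% in COV504. ENST00000368715, at 0.91% to 1.54% in IGROV-1, held 10.6% in OVKATE, 20.3% in OVTOKO and 10.1% in COV504, and 0.33% to 2.14% in the others. Usage was called in OVMANA, OVKATE, OVTOKO, COV362 and COV504 (edgeR adjusted p from 1.54e-05 in OVKATE to 0.0245 in COV504), and not in SK-OV-3 (adjusted p = 0.835). The COV504 call, on a gene at 39.2 CPM there, held in 3 of 8 alternatives.

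In S100A6 the transcript ENST00000496817, whose start lies 7 bases from that of the leading ENST00000368719, held 20.2% in OVKATE, 18.5% in OVMANA, 11.8% in SK-OV-3, 11.2% in COV362, 9.45% in COV504 and 8.86% in OVTOKO, against 6.06% to 7.30% in IGROV-1. The change was called in OVMANA (edgeR adjusted p = 0.00174) and OVKATE (adjusted p = 4.89e-04), and the OVMANA call was lost when IGROV-1 PromethION replicate 1, PromethION replicate 2 or MinION replicate 2 was left out, with adjusted p of 0.0585, 0.0514 and 0.0574. In S100A2, ENST00000368708 led with 67.5% to 87.1% of the counts, and ENST00000368709 held 4.52% to 10.5% in IGROV-1 and 0.95% or less in the other lines. ENST00000487430 held 5.32% to 13.6% and ENST00000497140 2.38% to 8.41% over all 10 libraries. S100A2 usage was called in OVKATE (adjusted p = 0.0162) and COV504 (adjusted p = 0.0292), each in 2 of 8 alternatives and in none that left out a library. S100A10 (ENST00000368811) and S100A16 (ENST00000368706) were carried by 1 transcript, at 99.7% or more and, outside the few counts of IGROV-1, 92.5% or more. S100A9, S100A11 and S100P have a single transcript in the files. S100A14 was led by ENST00000368702, with 87.1% in OVKATE, 89.4% in COV362 and 89.3% in COV504, where ENST00000476873 held 6.73%, 9.38% and 6.17% and ENST00000344616 5.44%, 1.10% and 4.49%. The share of ENST00000368701 was 0.77% or less in these lines. The second S100A16 transcript, ENST00000368704, held 6.87% in OVKATE and 1.88% or less in the 5 other lines.

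**Figure D4:**
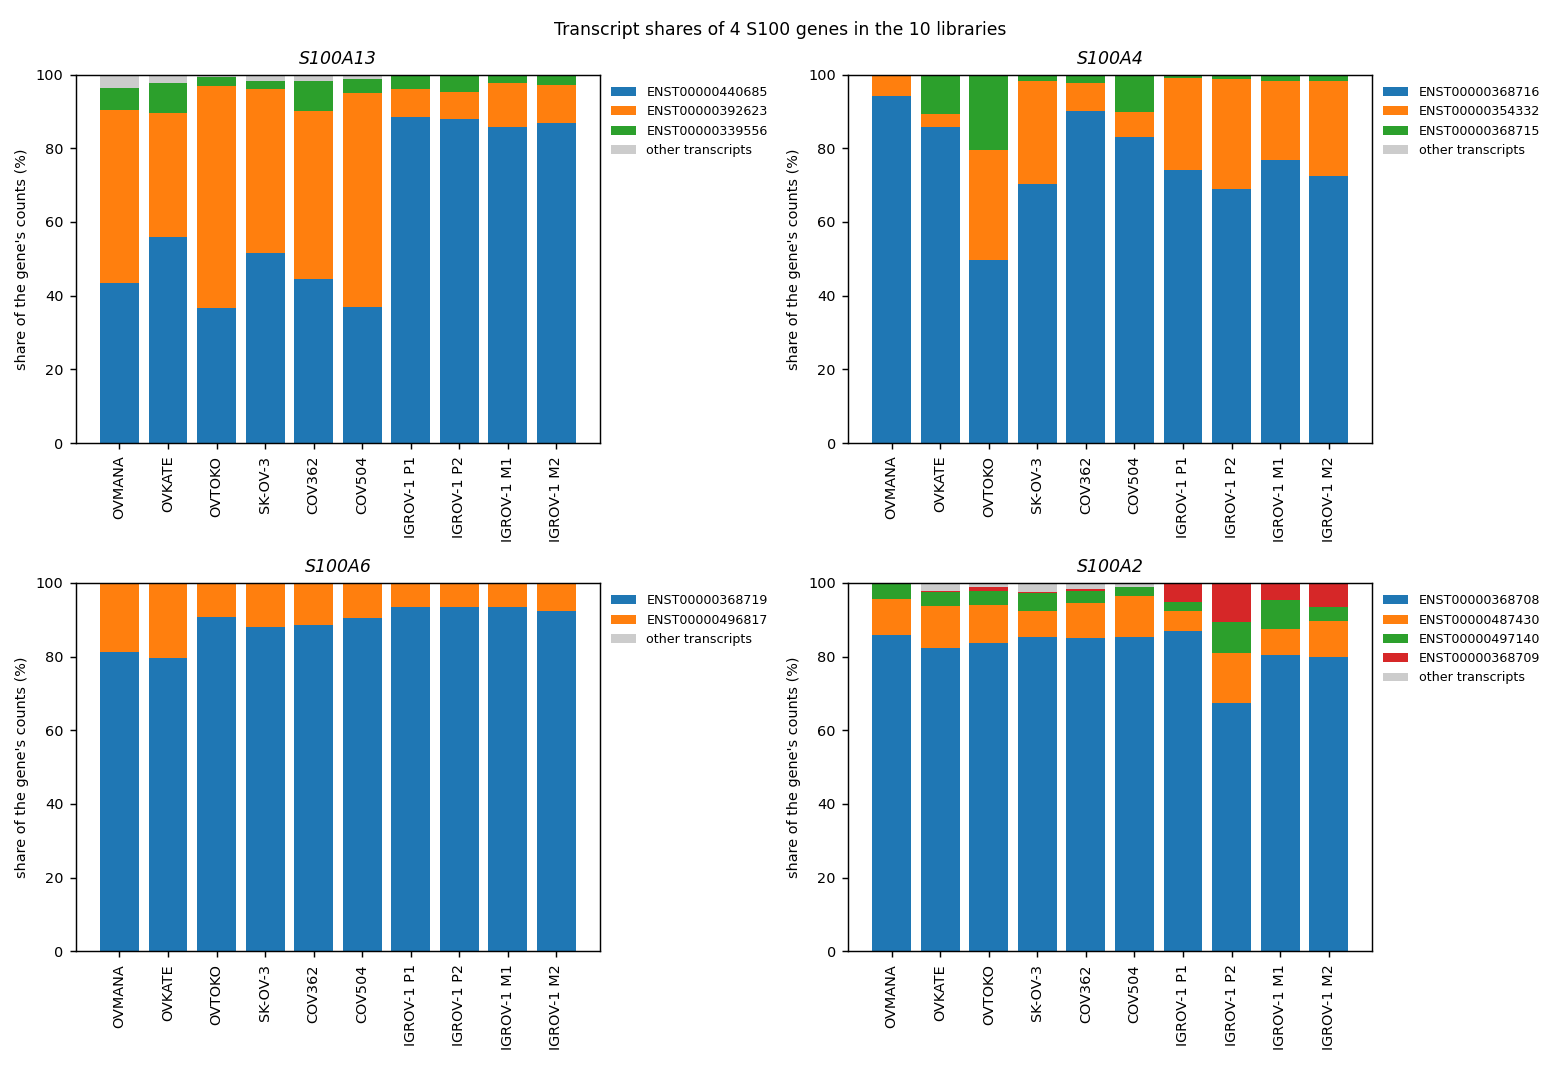
Share of each named transcript in the counts of S100A13, S100A4, S100A6 and S100A2 (percent, stacked) in each of the 10 libraries; grey stands for all other transcripts of the gene and P1, P2, M1 and M2 are the IGROV-1 libraries. ENST00000392623 of S100A13 is 11.8% or less in IGROV-1 and 33.8% or more elsewhere, and OVTOKO has the largest share of ENST00000368715 of S100A4, 20.3%.

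The third comparison was between instruments within IGROV-1. Of 10041 genes tested, 0.817% differed between the MinION and the PromethION, and none of the 6 members tested passed in this fit, which treats the 4 libraries as unpaired (edgeR's quasi-likelihood test, 1 member at an unadjusted p under 0.05, and 0 called and 1 at that unadjusted p by DESeq2). S100A6 was at 835 ± 92.6 CPM on the PromethION and 1181 ± 48.0 CPM on the MinION (SD, n = 2 each), a log2 difference of 0.46 ± 0.13 (SE), with both MinION libraries above both PromethION libraries and an adjusted p of 0.147. For S100A2, S100A4, S100A10, S100A11 and S100A13 the log2 difference lay between -0.22 and 0.31, and both MinION libraries were above both PromethION libraries for S100A11 and below them for S100A10. S100A9, S100A14, S100A16 and S100P had too few counts in IGROV-1 to be tested. Of 11 member transcripts tested, 0 were called (3 at an unadjusted p under 0.05, and 0 called and 2 at that p by DESeq2), against 2.29% of 14023 transcripts. Usage was called for 0 of 3 members, S100A4, S100A6 and S100A13 (0 at an unadjusted p under 0.05, and 0 called with the gene-level F test), against 5.98% of 2979 genes. Mitochondrial ribosomal RNA took 9.13% and 10.9% of the counts of the PromethION libraries and 1.15% and 1.01% of the MinION libraries, and with the MinION libraries as the reference, an alternative chosen after seeing the data, 40 of the 42 member calls between lines held. In an alternative fit with the replicate number as a block, S100A6, S100A10, S100A11 and S100A13 were called between instruments, among 1979 genes over all. The labels do not say that these numbers pair libraries, but deviations of same-numbered libraries correlated at r = 0.367 over the 10041 genes. The lack of a call in the unpaired fit therefore does not show that the members were alike on both instruments.

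Of the other genes of the S100 family, 3 of 11 had enough counts to be tested. S100A1, known from heart muscle, was called higher than IGROV-1 in 5 of 6 lines, with a log2 difference of 8.47 in OVKATE (edgeR adjusted p = 4.83e-07). S100A3, which overlaps S100A4 on the same strand, was called higher in 5 lines, at 6.43 to 24.8 CPM against 0 counts in IGROV-1 and in OVMANA. S100A5 was called higher in SK-OV-3 at 7.60 CPM and not called in the 5 other lines. S100A7A, S100A7L2, S100A12 and S100B were at 0 counts in every library.

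Of 16 binding partners and receptors of S100 proteins, 13 were tested, and 7 were higher and 2 lower in SK-OV-3, 6 and 0 in COV504, 6 and 2 in COV362, 5 and 3 in OVKATE, 4 and 2 in OVMANA and 4 and 1 in OVTOKO. Their median log2 difference ran from 0.02 in OVKATE to 1.14 in COV504, where the median of all genes was between -0.01 and 0.04. Over all genes tested, the share called higher ran from 18.2% (OVTOKO) to 26.8% (OVKATE). The share called lower ran from 15.9% (OVTOKO) to 22.4% (OVKATE). ANXA2, the annexin bound by S100A10, was at 730.4 and 792 CPM (PromethION) and 676 and 739 CPM (MinION) in IGROV-1, and at 5673 in COV504, 5208 in OVKATE, 3344 in SK-OV-3, 3100.2 in OVMANA, 1527 in COV362 and 1455 in OVTOKO. It was called higher in all 6 lines, with a log2 difference of 2.09 in OVMANA (edgeR adjusted p = 2.66e-05), where S100A10 was not called. ANXA11 was also higher in all 6, ANXA1, the partner of S100A11, and IQGAP1 in 5, and SYT1, which takes part in FGF1 release with S100A13, in 4, at 22.7 CPM or less. ANXA6 and SUGT1 were each lower in 4 lines. CACYBP, the partner of S100A6, was lower in SK-OV-3 and called in no other line, and MYH9, the myosin bound by S100A4, was higher in SK-OV-3 and called in no other line. The receptors AGER and TLR4 were at 3.44 CPM or less in every library and were not tested.

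Of the genes of other families beside the S100 cluster on chromosome 1, 15 were tested. In OVKATE 7 were higher and 1 lower, in COV362 6 and 0, in COV504 2 and 4, in OVMANA 2 and 1, in SK-OV-3 2 and 3 and in OVTOKO 1 and 5, with medians between -0.56 and 0.55 on the log2 scale. Over all genes tested, the share called higher ran from 18.2% (OVTOKO) to 26.8% (OVKATE). The share called lower ran from 15.9% (OVTOKO) to 22.4% (OVKATE). NPR1, a receptor of natriuretic peptides, was called higher in 5 lines, from 2.03 CPM in SK-OV-3 to 50.4 CPM in OVKATE, against 0.27 CPM or less in IGROV-1. CREB3L4, a transcription factor, was higher in OVKATE and COV362, and SLC27A3, a fatty acid transporter, in OVKATE, and neither was called in another line. The epidermal genes LOR, SPRR1B and IVL of the cluster were at 0 counts in all libraries. Of 13 other EF-hand calcium sensors tested, 2 to 6 were higher and 2 to 6 lower in a line, beside the same shares over all genes. Their medians lay between -0.46 and 0.39. CAPNS1, the small calpain subunit, was higher in all 6 lines, by log2 differences from 0.94 in OVKATE to 1.89 in COV362. CAPN1, a large calpain subunit, and RCN1 were each higher in 4 lines, RCN2 was lower in 4, and CALU was lower in 5 and higher in COV504. EFHD2 was higher in COV362, COV504 and OVMANA, and SRI (sorcin) was higher in OVKATE and OVTOKO and lower in OVMANA, at -1.25 (edgeR adjusted p = 0.00104).

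Some markers of epithelial cells also differed from IGROV-1. EPCAM, CDH1, KRT7 and KRT8 were called higher than IGROV-1 in all 6 lines, and IGROV-1 held CDH1 and KRT7 at 0 and EPCAM at 1.54 CPM or less. For CDH1, the calls in COV362 (1.57 CPM) and OVTOKO (2.31 CPM) rest on levels just above 3 counts (1.18 and 1.73 CPM). CDH1 was at 5.06 CPM in SK-OV-3, against 214 CPM in OVMANA. The remaining epithelial markers did not follow them in every line. KRT19 was called higher in OVMANA, OVKATE and COV504, lower in OVTOKO, at 0.58 CPM against 140 to 177 CPM in IGROV-1 (log2 difference -7.90, edgeR adjusted p = 1.0e-05), and in neither direction in SK-OV-3 and COV362. KRT18 was called higher in COV504, at a log2 difference of 2.75, and was not called in the 5 other lines, where it lay between -1.31 and 0.45. Its IGROV-1 libraries held 263 and 1041 CPM (PromethION) and 244 and 1080 CPM (MinION), a spread that limits what the test could call. The summed level of all 6 epithelial markers, KRT18 and KRT19 included, was 404 to 1270 CPM in IGROV-1, with 3 to 4 of 6 at or above 3 counts. In the other lines it was 474 (OVTOKO) to 9650 CPM (COV504), with 5 or 6 of 6. The IGROV-1 sums were 410 and 404 CPM in the replicates numbered 1. They were 1223 and 1270 CPM in those numbered 2, along with the split in KRT18. The sums of OVTOKO and SK-OV-3 (1195 CPM) lay between these replicates, which does not show a like epithelial level. PAX8, a marker of Müllerian epithelium, was detected in every library, at 84.1 to 339.8 CPM, and was called higher in OVMANA and lower in SK-OV-3 and COV504. Of the other genes of that list, MSLN (mesothelin) was called higher than IGROV-1 in 5 lines and was at 0 in OVTOKO, and MUC16 (CA125) was called higher in 4 and was at 0 in OVTOKO and SK-OV-3. IGROV-1 held MSLN at 0.27 CPM or less and MUC16 at 0.86 CPM or less. WT1 was at 76.2 CPM in OVKATE, where it was called higher, at 0.39 CPM in COV362 and at 0 in the 8 other libraries. Keratinocyte markers summed to 0 to 0.62 CPM in IGROV-1 and to 57.2 CPM in SK-OV-3 and 84.5 CPM in COV504 but 10.4 CPM in OVKATE, which had the most S100A2, and 0 to 0.39 CPM in the 3 other lines. Endothelial markers summed to 0.53 to 25.8 CPM over all libraries. Fibroblast markers summed to 4.91 to 23.2 CPM in IGROV-1 and to 0.58 (OVTOKO) to 434 CPM (COV362) in the other lines. The part of these differences in the levels of S100 genes was not tested.

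For each member that reached 10 CPM, the 2 genes outside the family with the most similar pattern over the 7 lines were picked from 10787 genes by Pearson r of log2(CPM + 1). For S100A2 they were CTGF (r = 0.983) and IFI27L1 (0.981), for S100A4 YAP1 (0.989) and WDR25 (0.977), and for S100A6 IFI16 (0.988) and APIP (0.983). For S100A10 they were DAB2 (0.995) and PAX6 (0.985), for S100A11 METTL5 (0.985) and BTC (0.98), and for S100A13 RAI2 (0.989) and C1orf43 (0.98). For S100A14 they were PTGS1 (0.996) and MCC (0.989), for S100A16 JADE2 (0.995) and OCIAD2 (0.994), and for S100P ASPHD2 (0.987) and LIMK1 (0.96). The values rest on 7 points and a choice of the highest among all candidates. Ranking by Spearman rho named 1 of the same 18 genes.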

How the data were processed

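Reads were aligned with minimap2 2.24-r1122 to GRCh38, per the submitters' processing notes, and the libraries came from a ligation kit, per the labels' protocols. The sources used here give neither the quantifier and its settings nor the use of strand. The authors deposited estimated counts per transcript, and TPM values that equal CPM and are not divided by length, checked to within 5.64e-11.

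Transcripts were summed per gene and rounded. Genes were tested with edgeR 4.0.16 in R 4.3.3 (TMM, filterByExpr, quasi-likelihood, two-sided, Benjamini-Hochberg over all genes), lines in 1 fit over all 10 libraries with the spread of the IGROV-1 pairs. Usage was tested with diffSpliceDGE and Simes p-values. Alternatives were DESeq2 1.42.0, other scalings, filters, references and left-out libraries. Scripts were tested on simulated data.

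All 10 members are named, with transcripts of at least 5% of a member's counts in a library, the 2 most similar genes, and list genes called in 1 direction in at least 4 lines or among the 3 with the widest range. Genes named beyond this rule (CACYBP, MYH9, AGER, TLR4 and genes at 0) were chosen after their values were seen. The members and lists were chosen with earlier results of these data known.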

Additional observations from a re-analysis of the deposited data

How the results depend on the processing

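Of the 42 member calls between lines, 42 were kept with RLE size factors, library size alone, a filter at 10 CPM, the reference annotation and PromethION libraries only, 41 without a filter, 40 with DESeq2, with all 4 IGROV-1 libraries and with the MinION reference, and 37 to 41 without 1 IGROV-1 library. Of the tested and counted results, 159 answering a comparison stayed the same and 11 moved, and of the single values 1136 stayed the same, 65 moved, 35 lost and 17 gained a call, and 8 turned direction. Without 1 IGROV-1 library, calls among the 15 pairs ran from 55 to 85, and members with a usage call in COV504 were 1 each time, as with PromethION libraries only. Usage calls in SK-OV-3 were 2 (S100A6 added) with a filter at 10 CPM and with the gene-level F test. Spearman rho named 1 of the 18 similar genes. S100A4 between instruments turned to -0.00145 with a filter at 10 CPM and ran from -0.12 to 0.14 without 1 library. S100P turned to 0.00 in OVKATE and OVTOKO with the MinION reference, and without 1 library ran from -3.26 to 0.00 in both and from -0.0862 to 3.18 in COV362. It has 1 count or less in these groups. The cause was not tested. Over all genes, calls between lines were 4443 to 6405, and 1314 to 2116 with DESeq2, 2890 to 6159 without 1 library. Between instruments 82 genes were called, 15 without a filter, 49 with all 10 libraries in the fit and 4 to 209 without 1 library, with 0 to 675 transcripts and 38 to 61 usage calls. Line usage calls, 64 to 235, were 219 to 508 with the F test, 186 to 350 with the MinION reference, 19 to 91 with PromethION libraries only and 13 to 71 without 1 library.

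Replicate numbers are shared by the IGROV-1 groups, but the labels do not say that they pair libraries. Deviations of same-numbered libraries correlated at r = 0.367 over 10041 genes. With the replicate block, 4 of 6 members (S100A6, S100A10, S100A11 and S100A13) and 5 of 11 member transcripts were called between instruments, against 1979 genes and 2291 transcripts over all, and usage calls were 234. No library has more than 1 replicate outside IGROV-1, and a lone library's spread is assumed. Low counts limit S100A9, S100A14 and S100P.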
